A study of Mus musculus with 8 samples.

Results

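Amacrine cells are the inhibitory interneurons of the inner retina, and 9 genes of their transmitter systems were followed on Affymetrix expression arrays of mouse retina. The genes were chosen by name: Gad1, Gad2, Slc32a1, Slc6a9, Th, Chat, Slc18a3, Slc5a7 and Calb2. All 15 probe sets with 1 of these symbols as their single platform gene symbol were used, of 45037 probe sets on the array. The study holds 8 samples with 1 array each, 4 control and 4 injected. Control samples were freshly dissected retinas, labelled as a time point of 0 d. Injected samples were labelled as injected retina, and the labels record a compound-based treatment. The labels name no strain, genotype, age, compound, dose, route or interval after injection. A group injected without the compound was not part of the comparison. Separate animals are not stated either, so p-values reflect the scatter among these samples, part of which may be technical.

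Amacrine cells lie between the bipolar cells, which carry the photoreceptor signal inwards, and the ganglion cells, whose axons form the optic nerve. Most of them release GABA or glycine onto bipolar cell terminals, ganglion cells and one another. Small classes use a further transmitter. The starburst cells release acetylcholine together with GABA and serve the detection of motion direction, and the dopaminergic cells adjust the retina to bright light. Each class is recognised by the enzymes and transporters that make, load or take up its transmitter.

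Values are given as log2(intensity + 16) after quantile normalisation of the deposited intensities, and a difference is the injected mean minus the control mean on that scale. Probe sets whose mean over the 8 arrays reached a floor of 8.50 were tested with limma, which left 27022 probe sets. Of the 15 probe sets of these genes, 10 were tested, and they stand for 7 of the 9 genes. The other 5 lay below the floor, among them the only probe sets of Slc18a3 and Slc5a7. In whole retina, fewer amacrine cells and less RNA per amacrine cell cannot be told apart.

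Injected replicate 3 stood apart from the other arrays. It held the highest or the lowest of the 8 values at 57.0% of all tested probe sets, against 15.7% to 28.0% on the other 7 arrays, and at 8 of the 10 tested probe sets of the transmitter genes. Differences of the transmitter genes and medians of the gene lists are therefore given with and without it, and those of a partner gene where it turned the sign or moved the difference by over 1.5 times. A measure of RNA quality also moved with the groups. The ratio of signal at the 3′ end to the 5′ end of Gapdh ran from 3.36 to 4.68 in control and from 5.26 to 8.82 in injected arrays. A two-sided exact permutation test gave p = 0.0286, its lowest possible value with 4 arrays in each group. The same ratio for beta-actin overlapped, at 39.2 to 57.2 and 43.3 to 59.7 (exact two-sided permutation p = 0.486). The part of RNA quality in the differences below was not tested.

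None of the 10 tested probe sets passed limma's adjusted threshold of 0.05 (0 of 10), with adjusted p from 0.618 to 0.933. Over all 27022 probe sets the counts were 0 higher (0%) and 0 lower (0%). The most negative differences were those of a second Gad1 probe set and of Calb2, and the most positive those of a second Slc6a9 probe set and of Th. Both positive ones had control means below the floor, at 8.30 and 8.09. They were tested only because of their injected values, so the filter favoured their positive sign. At an unadjusted p under 0.05 there were 3 of 10, namely the second probe sets of Gad1 and Slc6a9 and the probe set of Calb2, where 6.99% of all tested probe sets reached that level. Of the 3, 1 was higher and 2 were lower, against 3.66% higher and 3.33% lower over all tested probe sets. Differences were negative at 5 and positive at 5 of the 10, and their median was -0.06, beside -0.02 over all tested probe sets. Of all tested probe sets 52.4% had a negative difference, the share to set beside the sign counts of the gene lists below.

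**Figure D1:**
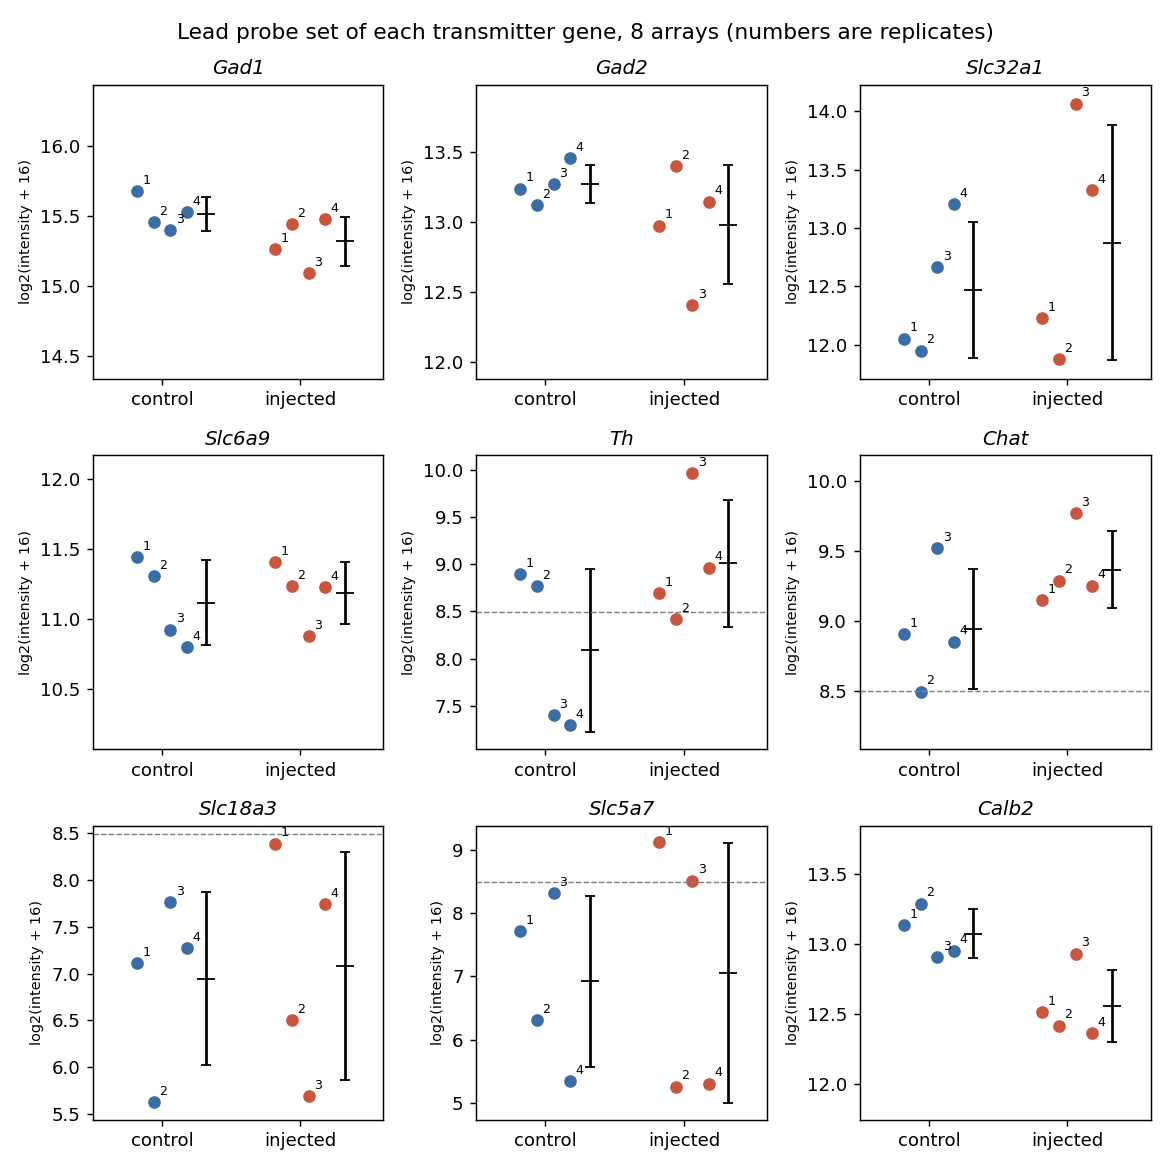
Log2(intensity + 16) of the lead probe set (the one with the highest mean) of each of the 9 genes on 4 control and 4 injected arrays. Points are arrays numbered by replicate, black marks are the mean with its SD (n = 4), and the dashed line is the test floor of 8.50. Calb2 shows 3 injected arrays below all controls, and Slc18a3 and Slc5a7 scatter below or around the floor.

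GABA is made from glutamate by the glutamate decarboxylases encoded by Gad1 and Gad2. The lead Gad1 probe set (1416561_at) read 15.68, 15.45, 15.40 and 15.53 in control replicates 1 to 4. In injected replicates 1 to 4 it read 15.26, 15.44, 15.09 and 15.47. All 4 injected values lay below the control median and the groups overlapped. The means were 15.51 ± 0.12 and 15.32 ± 0.18 (SD, n = 4 each), a difference of -0.20 ± 0.17 (SE; 95% interval -0.59 to 0.19; limma adjusted p = 0.779). Leaving out injected replicate 3 gave -0.12.

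A second Gad1 probe set (1416562_at) gave a larger difference. It read 9.61, 9.62, 9.78 and 9.64 in control arrays, a narrow range. Injected arrays read 9.62, 8.62, 8.55 and 8.57, so injected replicate 1 matched the controls and the other 3 lay below all of them. The difference was -0.82 ± 0.26 (SE; 95% interval -1.41 to -0.24; limma adjusted p = 0.618), from 9.66 ± 0.08 to 8.84 ± 0.52 (SD, n = 4 each). Without injected replicate 1 it was -1.08 (adjusted p = 0.447), and without injected replicate 3 it was -0.73.

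Gad2 was read by 2 tested probe sets. The lead one (1429589_at) read 13.24, 13.12, 13.27 and 13.45 in control and 12.97, 13.40, 12.40 and 13.14 in injected replicates 1 to 4. Injected replicate 3 was the lowest of the 8 and the remaining injected values reached into the control range or close to it. The difference was -0.29 ± 0.23 (SE; 95% interval -0.82 to 0.24; limma adjusted p = 0.768), and without injected replicate 3 it was -0.10. The second Gad2 probe set (1421978_at) read 10.69, 10.42, 10.70 and 10.80 in control and 10.64, 10.03, 9.53 and 10.68 in injected arrays. It differed by -0.43 ± 0.27 (SE; 95% interval -1.05 to 0.18; limma adjusted p = 0.744) and by -0.21 without injected replicate 3. Injected replicate 3 was again the lowest, and replicates 1 and 4 lay inside the control range.

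Slc32a1 encodes the vesicular transporter that loads both GABA and glycine into synaptic vesicles, in amacrine and horizontal cells alike. Its lead probe set (1422756_at) read 12.05, 11.95, 12.66 and 13.20 in control replicates 1 to 4. Injected replicates 1 to 4 read 12.23, 11.88, 14.07 and 13.32. Both groups split into low and high arrays, with replicates 3 and 4 the higher ones in each. The SD was 0.58 in control and 1.004 in injected arrays, where the median SD over all tested probe sets was 0.26 and 0.42. The difference was 0.41 ± 0.49 (SE; 95% interval -0.70 to 1.51; limma adjusted p = 0.823). Without injected replicate 3 it was 0.01, and with array weights it turned to -0.11, so no direction can be given. The other 3 Slc32a1 probe sets lay below the floor on average and were not tested. Their differences were 1.21 (1447574_s_at, a design that can bind related transcripts), -1.26 (1456457_at) and -0.36 (1447573_at), and without injected replicate 3 they were 0.64, -1.21 and -0.60.

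Horizontal cells also make GABA in the mouse retina, so their markers are given beside these genes. Of 8 listed horizontal cell markers 6 were tested, 5 with a negative difference and a median of -0.51 (-0.49 without injected replicate 3), and 0 passed the adjusted threshold. The 1 marker with a positive difference was Onecut2, at 1.05. The summed intensity of the markers ran from 72888 to 84758 in control and from 40585 to 62551 in injected arrays. Calb1, which is shared with amacrine cells, gave most of this sum on every array. No marker of the list lay below the floor on all 8 arrays (0 of 8). The part of horizontal cells in the Gad1, Gad2 and Slc32a1 values was not tested.

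Glycinergic amacrine cells take up glycine through the transporter encoded by Slc6a9. Its lead probe set (1417636_at) read 11.44, 11.31, 10.93 and 10.80 in control and 11.41, 11.23, 10.88 and 11.23 in injected arrays. The groups shared nearly the same range. The difference was 0.07 ± 0.21 (SE; 95% interval -0.41 to 0.55; limma adjusted p = 0.933), and it was 0.17 without injected replicate 3 and -0.09 when arrays were centred on their medians.

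A second Slc6a9 probe set (1431812_a_at, a design that reads alternative transcripts of 1 gene) was the only one of the 10 whose groups did not overlap (1 of 10), where 5.07% of all tested probe sets did not overlap and 2.47% did so with the injected group higher. It read 8.74, 8.37, 7.72 and 8.36 in control arrays. Injected arrays read 8.78, 8.78, 10.30 and 9.99. Injected replicates 1 and 2 lay just above the highest control and replicates 3 and 4 well above it. The difference was 1.16 ± 0.39 (SE; 95% interval 0.28 to 2.05; limma adjusted p = 0.658), and 0.89 without injected replicate 3. On the deposited scale the groups overlapped, with control up to 8.64 and injected from 8.56. With median centring they did not, with control up to 8.70 and injected from 8.74, and the share over all probe sets was not counted there. The control mean of 8.30 ± 0.43 (SD, n = 4) lay below the floor, so this probe set was tested only because of its injected values.

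**Figure D2:**
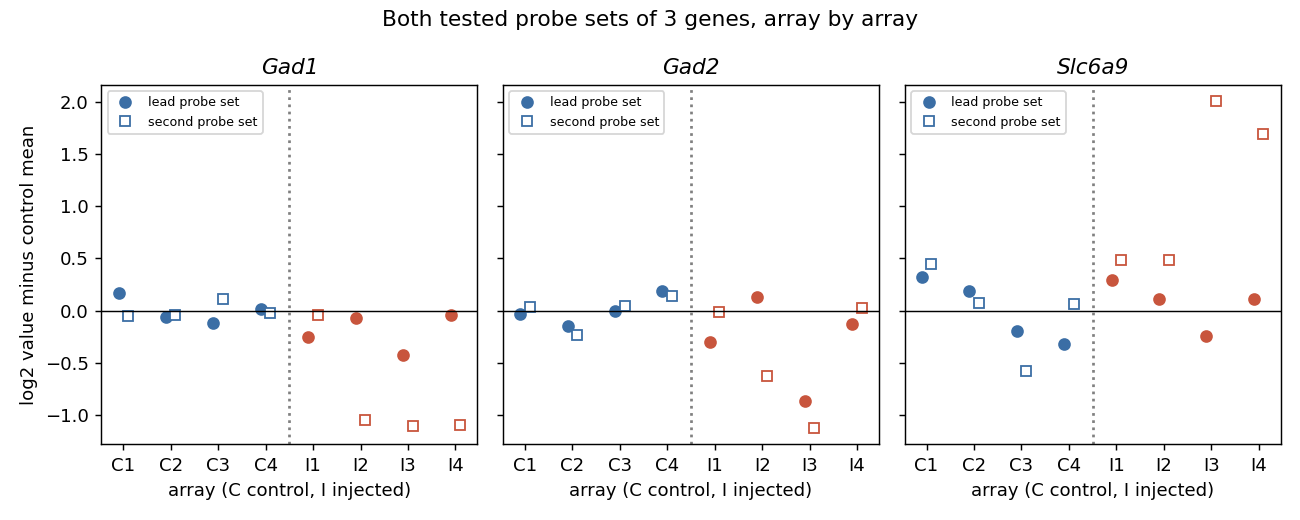
Log2 value minus the control mean on each of the 8 arrays for the lead (filled circles) and second (open squares) tested probe set of Gad1, Gad2 and Slc6a9. The second Gad1 probe set is low on injected replicates 2 to 4 while the lead one stays near its controls, and the second Slc6a9 probe set is high on injected replicates 3 and 4.

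Whether the probe sets of 1 gene changed unequally was tested on the within-array difference, second minus lead, in the 3 genes with 2 tested probe sets. For Gad1 that difference ran from -6.07 to -5.62 in control and from -6.91 to -5.64 in injected arrays, and 3 of 4 injected arrays were lower than every control. A two-sided exact permutation test gave p = 0.114 (Benjamini-Hochberg over the 3 genes, 0.171). For Slc6a9 it ran from -3.21 to -2.44 and from -2.63 to -0.58, and 2 of 4 injected arrays were higher than every control (p = 0.0857 by the same exact test, adjusted 0.171). For Gad2 the exact test gave p = 0.686 (adjusted 0.686). None of the 3 passed. With 4 arrays in each group the exact p can be no lower than 0.0286. A single gene with separated groups could therefore not pass after adjustment over the 3 genes. The test cannot decide whether the probe sets of 1 gene changed unequally, and it was chosen after the values were seen.

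**Figure D3:**
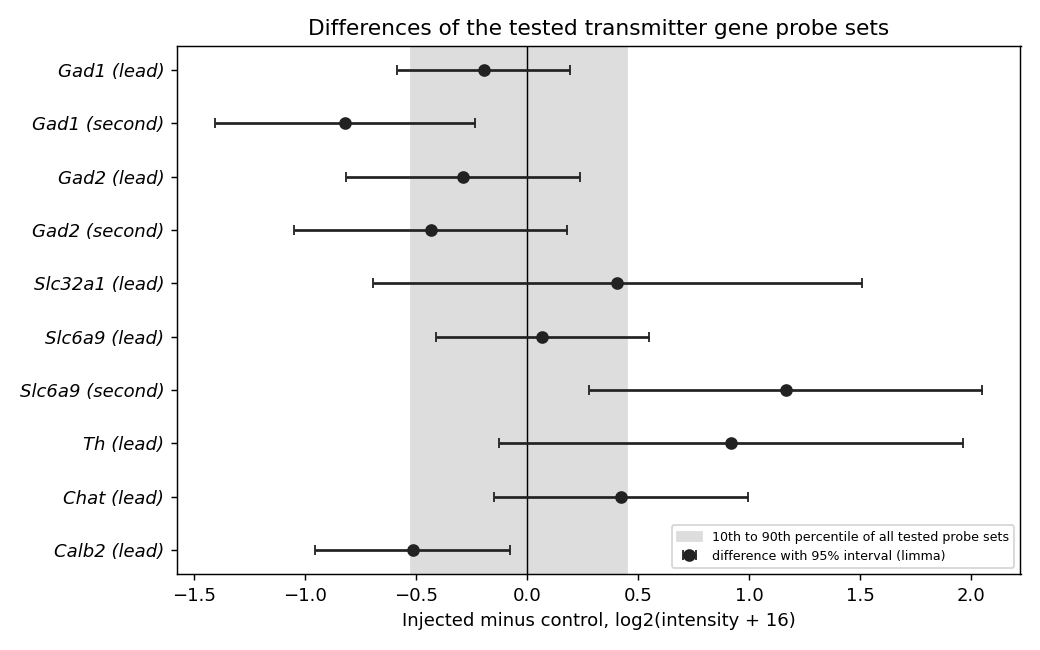
Injected minus control difference in log2(intensity + 16) for the 10 tested probe sets (points) with 95% intervals from limma, beside the 10th to 90th percentile of all 27022 tested probe sets (grey band, -0.52 to 0.45). The intervals of the second Gad1 and Slc6a9 probe sets and of Calb2 exclude 0 before adjustment, and the other 7 include it. The second Slc6a9 probe set and Th were tested only because of their injected values.

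Dopaminergic amacrine cells are marked by Th, tyrosine hydroxylase, which catalyses the rate-limiting step of dopamine synthesis. The probe set (1420546_at) read 8.90, 8.77, 7.40 and 7.29 in control replicates 1 to 4 and 8.69, 8.42, 9.97 and 8.96 in injected replicates 1 to 4. Control replicates 1 and 2 lay among the injected values, control replicates 3 and 4 were the lowest of the 8, and injected replicate 3 was the highest. The difference was 0.92 ± 0.46 (SE; 95% interval -0.13 to 1.96; limma adjusted p = 0.725), from 8.09 ± 0.86 to 9.01 ± 0.67 (SD, n = 4 each). Without injected replicate 3 it was 0.60. The control mean lay below the floor, where signal is dim, so Th was tested only because of its injected values.

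The starburst cells are the cholinergic amacrine cells. Chat, choline acetyltransferase, makes acetylcholine, Slc18a3 encodes the transporter that loads it into vesicles, and Slc5a7 encodes the high-affinity transporter that recovers choline from the synapse. Slc18a3 lies within the Chat gene in the RefSeq annotation (GRCm38.p6), an arrangement known as the cholinergic gene locus. The Chat probe set (1440070_at) read 8.91, 8.49, 9.52 and 8.85 in control arrays. Injected arrays read 9.15, 9.29, 9.77 and 9.25. All 4 injected values lay above the control median, but control replicate 3 exceeded 3 of them. The difference was 0.42 ± 0.25 (SE; 95% interval -0.15 to 0.99; limma adjusted p = 0.744), from 8.94 ± 0.43 to 9.37 ± 0.28 (SD, n = 4 each), and 0.29 without injected replicate 3.

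Slc18a3 (1422203_at) read 7.11, 5.63, 7.77 and 7.28 in control and 8.39, 6.50, 5.69 and 7.75 in injected arrays. All 8 values lay below the floor. Slc5a7 (1421428_at) read 7.72, 6.31, 8.32 and 5.33 in control and 9.13, 5.25, 8.52 and 5.30 in injected arrays, with 2 of 8 values above the floor. Their differences of 0.13 and 0.13 were small beside SDs of 0.92 and 1.22 for Slc18a3 and of 1.35 and 2.07 for Slc5a7. A difference between groups was not measurable for either at this signal. Both turned negative when single arrays were left out, to -0.31 for Slc18a3 without control replicate 2 and to -0.56 for Slc5a7 without injected replicate 1. They were 0.60 and -0.36 without injected replicate 3.

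Calb2 encodes calretinin, a calcium-binding protein of amacrine and ganglion cells that buffers calcium in the cell body and processes. Its probe set (1451129_at) read 13.14, 13.29, 12.91 and 12.95 in control replicates 1 to 4. Injected replicates 1 to 4 read 12.51, 12.41, 12.93 and 12.36. Injected replicates 1, 2 and 4 lay below all controls, and replicate 3 lay within the control range. The means were 13.07 ± 0.18 and 12.55 ± 0.26 (SD, n = 4 each), a difference of -0.52 ± 0.20 (SE; 95% interval -0.96 to -0.08; limma adjusted p = 0.709), or 0.70 of the control level. Without injected replicate 3 the difference was -0.64 (adjusted p = 0.489). On the deposited scale all 4 injected arrays, up to 12.80, lay below all controls, from 12.92 upwards, with a difference of -0.57. With median centring they also lay below, up to 12.59 against controls from 12.93. The share of all probe sets that separate on these 2 scales was not counted, so these separations have no background beside them. With quantile normalisation 2.60% of all tested probe sets were lower without overlap, and Calb2 was not among them.

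Ganglion cells share Calb2 with amacrine cells, and their markers are given beside it. Of 12 listed ganglion cell markers 10 were tested, 9 with a negative difference and a median of -0.30 (-0.20 without injected replicate 3), and 0 passed the adjusted threshold. Their summed intensity ran from 159173 to 179858 in control and from 132818 to 164993 in injected arrays, so the groups overlapped. No listed marker lay below the floor on all 8 arrays (0 of 11 on the array). The part of ganglion cells in the Calb2 difference was not tested.

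**Figure D4:**
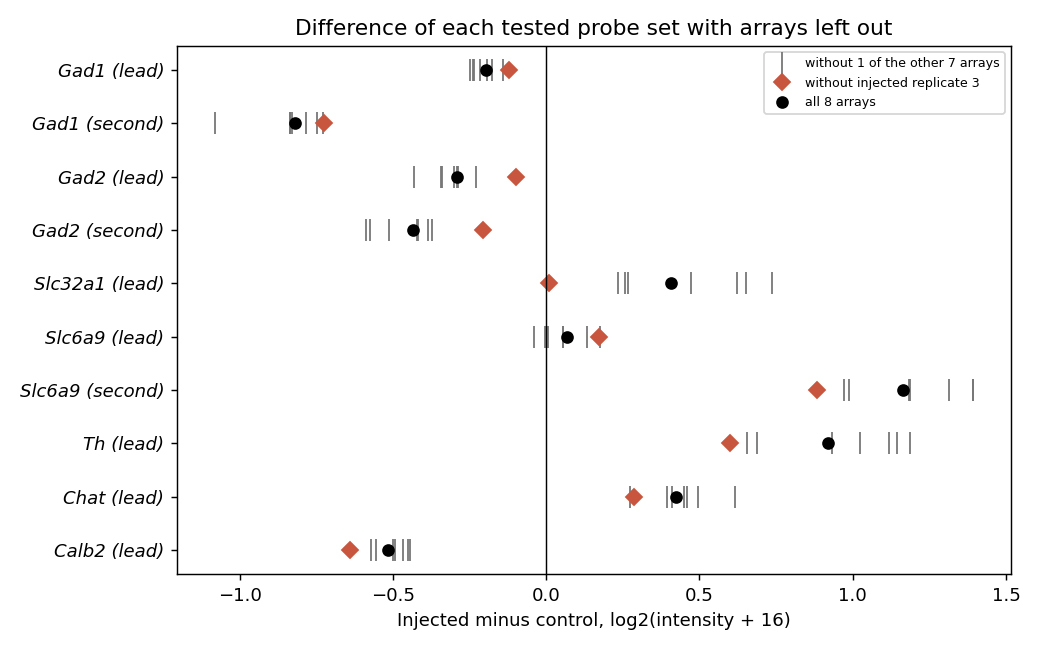
Injected minus control difference in log2(intensity + 16) of each tested probe set with all 8 arrays (black), without injected replicate 3 (red) and without each of the other 7 arrays (grey bars). Without injected replicate 3 the lead Slc32a1 probe set moves from 0.41 to 0.01 and Gad2 from -0.29 to -0.10, and Calb2 moves the other way, from -0.52 to -0.64.

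The partners of these genes in each transmitter pathway were read at their lead probe sets. Without injected replicate 3, the differences of the 22 tested partner genes changed sign at 1, shrank by over 1.5 times at 9, grew by over 1.5 times at 5 and stayed within that at 7, and 0 passed limma's adjusted threshold. Of 8 listed GABA handling genes 5 were tested, all 5 with a negative difference, a median of -0.16 (-0.15 and 4 of 5 negative without injected replicate 3), and 0 past the adjusted threshold. Abat, the transaminase that breaks down GABA, differed by -0.77 ± 0.40 (SE; limma adjusted p = 0.729), from 12.58 ± 0.14 to 11.81 ± 0.92 (SD, n = 4 each). Injected replicate 3 read 10.45 and the other injected arrays 12.12 to 12.45, and without it the difference was -0.31 ± 0.16 (SE; limma adjusted p = 0.772). The groups did not overlap with or without that array, as at 2.60% of all tested probe sets on the lower side with all arrays. The GABA transporter gene Slc6a11 differed by -0.34 ± 0.70 (SE), and control replicate 2 decided this value. That array read 6.65 and the other controls 9.72 to 10.15, against 8.25 to 9.09 in injected arrays. Without control replicate 2 the difference was -1.17 ± 0.26 (SE; limma adjusted p = 0.596) and the groups did not overlap, and without injected replicate 3 it was -0.15. How many of all probe sets separate without control replicate 2 was not counted. Of 8 glycine handling genes 7 were tested, 6 with a negative difference and a median of -0.14 (-0.20 without injected replicate 3), and 0 passed. Slc6a5, the neuronal glycine transporter of presynaptic terminals, differed by -0.21 ± 0.18, Gldc, a subunit of the glycine cleavage system, by -0.05 ± 0.37 and Shmt2, a glycine-forming hydroxymethyltransferase, by 0.17 ± 0.18 (SE each). Slc6a5 was at -0.12 and Gldc at -0.27 without injected replicate 3.

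For dopamine, 9 of 11 listed genes were tested, 5 with a positive and 4 with a negative difference, a median of 0.01 (-0.0018 without injected replicate 3), and 0 passed. Ddc, the decarboxylase that follows Th in dopamine synthesis, differed by -0.45 ± 0.39 (SE). Injected replicate 3 was its lowest array, and without it the difference was -0.09 ± 0.28. Slc18a2, the vesicular monoamine transporter, differed by 0.03 ± 0.28 (0.08 without injected replicate 3), Gch1, which makes the cofactor of Th, by 0.15 ± 0.26 and the monoamine oxidase Maoa by 0.26 ± 0.22. A second tested Maoa probe set (1442676_at) had the other sign, at -0.35 ± 0.25 (SE), and at -0.19 without injected replicate 3. Slc6a3, the dopamine transporter, lay below the floor, at 7.14 ± 0.64 in control and 7.28 ± 1.11 in injected arrays (SD, n = 4 each). Of 9 genes of acetylcholine handling and starburst cells 8 were tested, with 3 positive and 5 negative differences, a median of -0.05 (0.0064 without injected replicate 3), and 0 passed. The starburst cell factors Sox2 and Isl1, which are shared with other retinal cells, differed by -0.22 ± 0.22 and -0.01 ± 0.16 (SE), and by -0.08 and -0.07 without injected replicate 3. A second tested Isl1 probe set (1422720_at) differed by -0.53 ± 0.32 (SE), and by -0.24 without injected replicate 3. The choline transporter Slc44a1 differed by -0.08 ± 0.19, and by 0.02 without that array. Ache, which hydrolyses acetylcholine, lay below the floor at 8.22 ± 0.81 and 7.90 ± 1.17 (SD, n = 4 each).

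Among the calcium-binding proteins Calb1, calbindin, of horizontal and amacrine cells, differed by -0.61 ± 0.19 (SE; limma adjusted p = 0.613) without overlap of the groups, from 15.81 ± 0.11 to 15.20 ± 0.27 (SD, n = 4 each). Over all tested probe sets 2.60% were lower without overlap. All 4 of its probe sets had negative differences, from -0.72 to -0.37. Parvalbumin, Pvalb, differed by 0.27 ± 0.28, and by 0.13 without injected replicate 3. Of 5 tested genes of that list 3 had a negative difference, with a median of -0.11 (-0.10 without injected replicate 3), and 0 passed.

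Regulators that specify amacrine cells went both ways, with 5 positive and 5 negative differences among 10 tested of 16, a median of -0.01 (-0.10 without injected replicate 3), and 0 past the threshold. Pax6, the transcription factor of amacrine and ganglion cells, differed by -0.38 ± 0.26 (SE), and the amacrine factors Tfap2a and Tfap2b by 0.14 ± 0.24 and -0.06 ± 0.25. The 3 were at -0.15 ± 0.17, 0.09 ± 0.24 and -0.20 ± 0.23 without injected replicate 3. Second tested probe sets gave lower values, at -0.38 ± 0.22 for Tfap2a (1426048_s_at) and -0.92 ± 0.45 for Tfap2b (1423340_at, SE each). Without injected replicate 3 these were -0.24 and -0.52. Barhl2 lay below the floor. Genes of amacrine subtypes and their synapses numbered 10 tested of 11, with 4 positive and 6 negative differences, a median of -0.15 (-0.04 without injected replicate 3), and 0 past the threshold. Nos1, nitric oxide synthase of a wide-field amacrine class, differed by 0.14 ± 0.19, and by 0.04 without injected replicate 3. A second tested Nos1 probe set (1438483_at) differed by -0.32 ± 0.55 (SE), and by 0.32 without that array. The peptide gene Vip differed by 0.48 ± 0.33 (SE). Injected replicate 3, at 13.08, lay below the controls, which ran from 13.58 to 13.83, and the other injected arrays lay above them, at 14.37 to 14.60. With that array left out the groups did not overlap and the difference was 0.84 ± 0.15 (SE; limma adjusted p = 0.409). The share of all probe sets that separate once that array is left out was not counted, so this separation has no background beside it. Dab1, a marker of the rod-pathway amacrine cell, differed by -0.14 ± 0.16. Its tested probe sets ranged from -1.27 ± 0.80 (1435577_at) to 0.11 ± 0.25 (1427307_a_at, SE each). Without injected replicate 3 these were -0.31 and 0.06. The horizontal cell factors Lhx1 and Onecut2 differed by -1.20 ± 0.31 and 1.05 ± 0.30, neither past the adjusted threshold (limma adjusted p = 0.532 and 0.582), and Onecut1 lay below the floor.

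**Figure D5:**
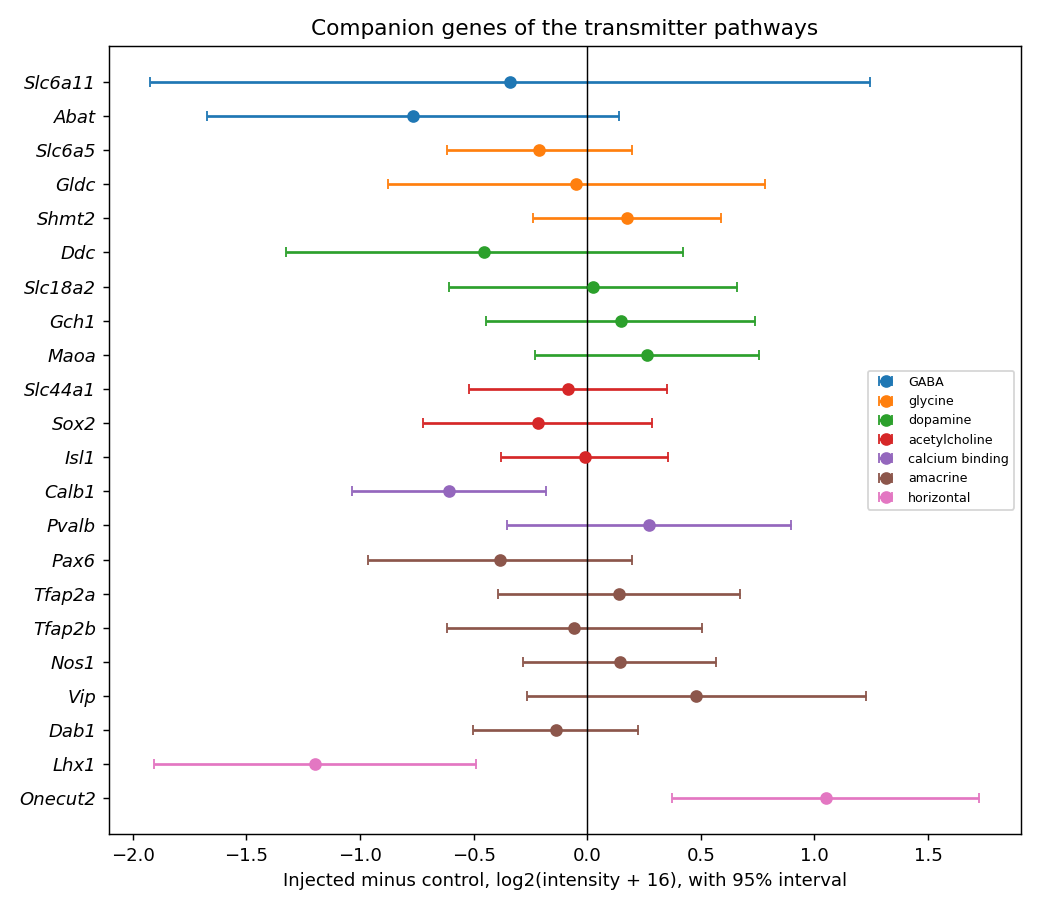
Injected minus control difference in log2(intensity + 16) with 95% intervals from limma for the lead probe sets of 22 tested partner genes, coloured by pathway or cell class. Differences were negative for 13 and positive for 9, the intervals of Calb1, Lhx1 and Onecut2 exclude 0 before adjustment, and none of the 22 passed the adjusted threshold.

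Marker genes of other cell types were read on the same arrays, and their differences are given here without a test of cell numbers. The tested microglia and leukocyte markers numbered 8 of 10, 7 with a positive difference and a median of 0.86, and their summed intensity ran from 29909 to 52332 in control and from 63406 to 161311 in injected arrays. All 9 tested cone markers had a negative difference, with a median of -0.49, where 52.4% of all tested probe sets had a negative difference. Pigment epithelium and melanocyte markers had a median of -0.91 over 8 tested of 10, with a summed intensity of 78403 to 351415 in control and 35437 to 101247 in injected arrays. Medians were -0.31 over 8 tested rod markers, -0.27 over 8 bipolar cell markers and -0.16 over 10 Müller glia markers. They were 0.06 over 5 astrocyte and oligodendrocyte markers, 0.45 over 5 lens and cornea markers and -0.32 over 6 vascular and blood markers. Over all lists 134 different genes were tested and 0 passed the adjusted threshold. Leaving out injected replicate 3, the medians were 0.77 for microglia and leukocyte, -0.40 for cone, -1.16 for pigment epithelium and melanocyte, -0.19 for rod and -0.15 for bipolar cell markers. They were then -0.20 for Müller glia, 0.18 for astrocyte and oligodendrocyte, 0.89 for lens and cornea and -0.10 for vascular and blood markers. With control replicate 2 left out, medians were -0.48 for pigment epithelium and melanocyte, -0.02 for vascular and blood and -0.07 for Müller glia markers. Other medians grew, to 0.92 for microglia and leukocyte, -0.38 for bipolar cell, 0.13 for astrocyte and oligodendrocyte and 0.75 for lens and cornea markers. Rod and cone medians stayed at -0.31 and -0.48. With injected replicate 4 left out, medians were -0.48 for rod, -0.71 for cone and -0.41 for bipolar cell markers. The part of these cells in the transmitter gene values was not tested.

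The genes most alike in pattern were sought among 12885 other tested genes by the root mean square difference of centred log2 values over the 8 arrays. They were Tbx2 (0.09) and Myrip (0.11) for Calb2, whose own root mean square deviation was 0.32. For Gad2, with a deviation of 0.31, they were Slc25a4 (0.08) and Noct (0.08). Slc32a1 came closest to Hpcal1 (0.29) and Rhov (0.30) against a deviation of 0.74, Th to Pla2g2a (0.30) and Plxnb1 (0.31) against 0.81, and Chat to Bcl2l10 (0.10) and Lpcat2 (0.13) against 0.38. For Gad1, with a deviation of 0.16, the closest were Tbc1d32 (0.06) and Ubxn4 (0.06), and for Slc6a9, with 0.23, Zfp251 (0.10) and Abhd16a (0.10). None of these was another of the 9 transmitter genes.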

How the data were processed

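The deposited table gives 1 linear intensity per probe set and array for 8 samples. The mean of each array without the top and bottom 2% is 2500, so the authors' deposited intensities were scaled to a common target. Their software is not given in the sources used here. Array controls (64 of 45101 rows) served only as quality measures. Groups came from the sample titles. Intensities were quantile-normalised in limma 3.58.1 (R 4.3.3) and taken as log2(intensity + 16). The added 16 narrows the gap between dim values on single arrays. A difference of group means can still grow, and that of Slc5a7 was 0.04, 0.13 and 0.21 with 1, 16 and 64 added. Probe sets at or above the 40th percentile of mean log2 value were tested (floor about 345 intensity units; 27022 probe sets, 12886 genes) with lmFit and eBayes, 4 against 4 arrays, with Benjamini-Hochberg adjustment over all of them. Detection calls were not used here.

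The lead probe set of a gene has the highest mean. The 9 genes, every one of their probe sets, 26 of 30 listed partner genes and the genes nearest in pattern were named by rule. The other partner genes are not reported here. Members, lists and tests were chosen with earlier results of these data known. Array numbers limit the precision of every value. The fit was also run on simulated data with the same spread in both groups and no outlying array. Those data do not test it under the unequal spread seen here. Alternatives were pseudocounts of 1 and 64, no filter and a 60th percentile filter, deposited scaling, median centring, a trended robust prior, array weights (statmod 1.5.0), a replicate block, an unmoderated test, 1 probe set per gene and leaving out each array. Leaving out control replicate 2 with injected replicate 3, leaving out single arrays for partner genes and lists, and the comparison of probe sets within a gene were added after the data were seen. Figures used matplotlib 3.10.9 in Python 3.11.15.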

Additional observations from a re-analysis of the deposited data

Results flagged for a closer look

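The second Gad1 probe set (1416562_at) was singled out in both groups by the distance of 1 array from the others. Control replicate 3 read 9.78, and the next control value was 9.64, a gap of 0.862 of the group's range. Injected replicate 1 read 9.62, and the next injected value was 8.62, a gap of 0.941 of the range. These were 2 of 30 groups of 4 arrays checked, and chance flags about 1 in 20. Without injected replicate 1 the difference of this probe set was -1.08 (limma adjusted p = 0.447) in place of -0.82.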

How the results depend on the processing

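Of 288 recomputed differences of the 15 probe sets, 283 kept their side of the threshold and, where tested, their direction, and 5 reversed. Slc32a1 (1422756_at) turned to -0.11 with array weights and to -0.16 without control replicate 2 and injected replicate 3, and ran from 0.01 to 0.74 with single arrays left out. Slc6a9 (1417636_at) turned to -0.091 with median centring and ran from -0.0385 to 0.18 with single arrays left out (the lowest without control replicate 4, -0.0052 without injected replicate 1). Without control replicate 2 and injected replicate 3 it was 0.23. The cause was not tested. Median centring moved the median of all differences to -0.15, and Calb2 was then at -0.75. Calls over all probe sets, 0 and 0, became 7 higher and 1 lower with array weights, ran from 0 to 31 higher and from 0 to 7 lower with single arrays left out (31 and 7 without injected replicate 4), and none of the 9 genes was among them. With 1 probe set per gene, 946 reached an unadjusted p under 0.05, against 1889, as fewer were tested. The replicate block gave 0, 0 and 1814; deviations of same-numbered arrays correlated at -0.03 to 0.08, and 1 of 4 control arrays matched its own number best, so the numbers were not taken as pairs. The 60th percentile filter left out the second probe sets of Gad1 and Slc6a9, Th and Chat.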

Other observations

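Among the 26 partner genes on the array, 11 had several tested probe sets, and in 6 of these the probe sets differed in sign. Pax6 ranged from -0.74 ± 0.24 (1452526_a_at) to 0.49 ± 0.27 (1456342_at, SE each), and from -0.61 to 0.35 for these probe sets without injected replicate 3. Slc44a1 had a second probe set (1423865_at) at 0.74 ± 0.19 beside -0.08 ± 0.19 at its lead, and the groups of the second did not overlap (limma adjusted p = 0.532, and a difference of 0.75 without injected replicate 3). Over all tested probe sets 2.47% were higher without overlap. The 3 tested probe sets of Onecut2 were all positive, from 0.56 to 1.05, and from 0.30 to 0.97 without injected replicate 3. A probe set of Gch1 below the floor (1420499_at) had groups that did not overlap, 8.28 ± 0.41 in control and 7.07 ± 0.91 in injected arrays (SD, n = 4 each), opposite in sign to its lead. The share of probe sets below the floor that separate was not counted.

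Injected arrays varied more than control arrays at 72.5% of all tested probe sets and at 7 of the 10 of the transmitter genes.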
